A study of Mus musculus with 8 samples.

Results

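Cmah, Arpp21, Fgf13, Col19a1, Il12a, Atp8b4, Sema3d and Rgl1 are 8 genes, of 32285 in the deposited table, that were described as genes of lymphoid priming in bone marrow progenitors. They were chosen by name after their levels in the same nuclei had been seen. Their levels beside Dntt therefore describe the choice and test nothing. The levels were read in gates, which are sets of nuclei defined by the UMIs (unique molecular identifiers, 1 per captured RNA molecule) of a few other genes. The lymphoid gates used Dntt and Il7r alone.

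The study asked how a point mutation of MYC, T58A, alters blood progenitors. Lineage-negative, Sca1-positive, ckit-positive marrow cells (LSK), a sorted fraction rich in stem cells and early progenitors, came from WT mice and from littermates carrying T58A. Nuclei were profiled by 10x multiome, which reads RNA and open chromatin in the same nucleus. The labels name 4 RNA samples, 2 per genotype, each from 2 mice, and 4 chromatin samples that were not used here. The RNA counts came as 1 table whose barcodes end in 1 of 4 suffixes, called barcode sets 1 to 4 here. No label or header used here ties a set to a genotype or a replicate. WT and T58A were therefore not compared, the table was read as 1 sample without replicates, and no p-value was computed. Values by set are given for the members' main comparisons, and relatives and companion genes are given pooled only.

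Lymphoid priming is the step at which multipotent progenitors begin to transcribe lymphocyte genes while still able to make myeloid cells. Dntt encodes terminal deoxynucleotidyl transferase, which adds nucleotides at the joints of rearranging antigen receptor genes and is switched on early on this path. Il7r encodes the interleukin-7 receptor chain, which supports the growth of lymphoid progenitors and B cell precursors.

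The members have unrelated products. Cmah encodes the hydroxylase that turns the sialic acid N-acetylneuraminic acid into N-glycolylneuraminic acid on its nucleotide carrier. Arpp21 encodes a cAMP-regulated phosphoprotein that binds RNA, and its gene hosts a microRNA. Fgf13 encodes a fibroblast growth factor homologous factor, which stays inside the cell and binds sodium channels and microtubules. Col19a1, Il12a and Sema3d encode secreted products, namely a chain of type XIX collagen, the p35 subunit of interleukin-12 and a class 3 semaphorin. Rgl1 encodes an exchange factor for Ral GTPases, and Atp8b4 a P4-ATPase of the phospholipid flippase family.

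The genes lie on 7 chromosomes, with coordinates from RefSeq on GRCm38.p6, the same assembly as mm10. Cmah spans chr13:24327404-24477289 on the plus strand, Arpp21 chr9:112065091-112236288 on the minus strand and Fgf13 chrX:59062139-59585572 on the minus strand. Col19a1 spans chr1:24257683-24587922 and Rgl1 chr1:152516762-152766308, both on the minus strand. Il12a spans chr3:68690644-68698550 on the plus strand, Atp8b4 chr2:126320973-126500669 on the minus strand and Sema3d chr5:12383161-12588953 on the plus strand. Apart from Il12a, at 7.91 kb, they are long genes, from 150 kb (Cmah) to 523 kb (Fgf13). The median of 11392 measured protein-coding genes was 26.0 kb, and 8.32% were at least as long as Cmah. Nuclear RNA holds many unspliced transcripts, so levels were compared between gates and not between genes.

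Upstream sequences of 4 members are shown because the MYC mutation and the lymphoid setting both point to E-boxes, the short motifs that basic helix-loop-helix factors bind. E2A, a factor of lymphoid priming, binds CAGCTG and CACCTG, the latter read as CAGGTG on the other strand, and MYC with MAX binds CACGTG. Each sequence is the 250 bases upstream of the most upstream start in the RefSeq promoter table (GRCm38.p6), written 5′ to 3′ on the gene's strand, with E-box matches in capitals. The windows are chr13:24327154-24327403 (plus) for Cmah, chrX:59585573-59585822 (minus) for Fgf13, chr3:68690394-68690643 (plus) for Il12a and chr1:152766306-152766555 (minus) for Rgl1. That start can lie within the gene's span: 3 bases of the Rgl1 window and 5 of the Sema3d window, and all 250 bases of the Arpp21, Col19a1 and Atp8b4 windows, lie inside the spans given above.
Cmah: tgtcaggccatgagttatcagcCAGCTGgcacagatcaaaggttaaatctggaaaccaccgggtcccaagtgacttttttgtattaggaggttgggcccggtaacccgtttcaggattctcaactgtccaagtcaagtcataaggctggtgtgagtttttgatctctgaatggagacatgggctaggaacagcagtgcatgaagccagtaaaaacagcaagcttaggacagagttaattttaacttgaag
Fgf13: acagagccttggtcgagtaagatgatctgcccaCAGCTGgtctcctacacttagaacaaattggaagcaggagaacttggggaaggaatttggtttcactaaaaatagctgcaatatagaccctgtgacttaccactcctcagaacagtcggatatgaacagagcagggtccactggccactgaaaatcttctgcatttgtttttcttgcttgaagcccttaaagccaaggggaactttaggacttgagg
Il12a: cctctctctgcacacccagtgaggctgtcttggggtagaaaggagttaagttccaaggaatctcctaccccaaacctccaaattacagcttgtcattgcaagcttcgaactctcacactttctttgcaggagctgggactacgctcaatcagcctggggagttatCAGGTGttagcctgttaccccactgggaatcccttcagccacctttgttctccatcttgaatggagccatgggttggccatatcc
Rgl1: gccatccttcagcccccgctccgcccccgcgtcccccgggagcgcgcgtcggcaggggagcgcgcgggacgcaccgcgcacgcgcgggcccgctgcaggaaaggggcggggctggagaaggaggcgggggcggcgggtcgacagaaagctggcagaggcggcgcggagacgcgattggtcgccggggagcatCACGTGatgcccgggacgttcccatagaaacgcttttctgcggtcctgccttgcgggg

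An E2A E-box was found on either strand in 4 of 8 members, against 27.4% of 27025 genes with such a window. Cmah and Fgf13 held CAGCTG, starting 228 and 217 bases upstream, Il12a held CAGGTG and Sema3d CACCTG. The MYC motif was found in Rgl1 alone, 58 to 53 bases upstream, against 6.04% of genes. Other cores searched on both strands were the EBF core CCCNNGGG (1 member, 11.6% of genes), the Ikaros core TGGGAA (3 members, 21.5%) and the RUNX core TGTGGT (1 member, 14.2%). The PU.1 core AGGAAG (1 member, 29.2%) and the GATA core AGATAA (1 member, 10.2%) completed the search. A match describes letters in these windows and shows no binding.

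The microRNA within Arpp21 is shown because its host was among the members most closely tied to Dntt. It lies on the strand of Arpp21 at chr9:112118644-112118664, and its seed, bases 2 to 8, is in capitals. The same mature sequence is made from a copy within R3hdm1, and the microRNA itself was not measured here.
miR-128-3p: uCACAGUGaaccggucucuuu

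The table held 8708 nuclei and 45723860 UMIs, with 1001 to 24786 UMIs and a median of 4147.5 per nucleus. Barcode sets 1 to 4 held 2999, 721, 2756 and 2232 nuclei. Sets 1 and 3 were shallower, with medians of 3035 and 3638.5 UMIs and mitochondrially encoded shares of 24.6% and 24.2%. Sets 2 and 4 had medians of 6764 and 5930.5 UMIs and shares of 9.98% and 9.22%. There were 36 barcode sequences present in more than 1 set. Over all nuclei the members held from 702 UMIs (Col19a1, in 383 nuclei) to 23079 UMIs (Atp8b4, in 3820 nuclei). Cmah held 4110 UMIs in 1127 nuclei, Arpp21 4857 in 1227 and Fgf13 5917 in 1602.

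The lymphoid gates split the nuclei as follows. Neither gene was detected in 6846 nuclei. Dntt-single nuclei (1 Dntt UMI, no Il7r) numbered 663 and Dntt-high nuclei (2 or more Dntt UMIs, no Il7r) 585. Double-positive nuclei, with at least 1 UMI of each gene, numbered 436, and Il7r-only nuclei 178. Median depth rose with the gate, from 3895.5 UMIs in the neither gate to 5622 in Dntt-high and 6163.5 in double-positive nuclei. All levels below are therefore counts per 1000000 UMIs (CPM) of a gate's summed counts. Intervals are at 95% and cover counting error only.

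Cmah stood at 21.7 CPM in the neither gate, 62.9 in Dntt-single, 229 in Dntt-high (214 to 244) and 652 in double-positive nuclei (624 to 681). In Dntt-high nuclei of sets 1 to 4 it was at 344, 167, 203 and 214 CPM, and in neither nuclei at 26.4, 21.7, 26.0 and 13.3 CPM. The sets of the Dntt-high and neither gates did not overlap. In double-positive nuclei the 4 sets gave 568, 894, 538 and 606 CPM, all above every Dntt-high value. The sialic acid hydroxylase gene thus stepped up at each gate.

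Arpp21 stood at 16.9 CPM in the neither gate, 61.1 in Dntt-single, 268 in Dntt-high (253 to 285) and 905 in double-positive nuclei (872 to 939). The 4 sets gave 411, 252, 235 and 231 CPM in Dntt-high and 14.0, 22.3, 11.2 and 23.2 CPM in neither nuclei. They gave 779, 1163, 675 and 915 CPM in double-positive nuclei, again without overlap.

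Fgf13 stood at 43.7 CPM in the neither gate, 128 in Dntt-single, 344 in Dntt-high (327 to 363) and 759 in double-positive nuclei (728 to 790). Its sets gave 316, 287, 267 and 405 CPM in Dntt-high and 34.9, 53.3, 32.7 and 58.8 CPM in neither nuclei. In double-positive nuclei they gave 509, 703, 598 and 947 CPM. For this intracellular factor too, each gate lay above the one before in every set.

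Among the genes of secreted products, Col19a1 was at 5.42 CPM in neither, 34.5 in Dntt-high and 93.5 in double-positive nuclei. Its sets gave 48.4, 34.3, 25.7 and 32.7 CPM in Dntt-high and 125, 80.3, 87.6 and 91.5 CPM in double-positive nuclei, without overlap. Il12a was at 24.1, 133 and 206 CPM in the same gates. Its sets overlapped between the last 2 gates, at 82.1 to 209 and 103 to 325 CPM. Sema3d, the semaphorin gene, was at 19.3, 84.7 and 85.3 CPM, so it did not step up from Dntt-high to double-positive nuclei. Its sets also differed: in double-positive nuclei sets 1 to 4 gave 26.2, 137, 15.5 and 110 CPM. The Ral exchange factor gene Rgl1 was at 29.4, 104 and 165 CPM. Its sets ran from 23.1 to 36.7 CPM in neither, 75.7 to 117 in Dntt-high and 119 to 197 in double-positive nuclei.

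Atp8b4 was the only member that did not reach 2-fold from the neither to the Dntt-high gate. It was at 471 CPM in neither, 636 in Dntt-single, 527 in Dntt-high and 668 in double-positive nuclei. The neither gate includes 1292 granulocytic nuclei, described below, in which Atp8b4 was at 1239 CPM. The part of these nuclei in the Atp8b4 level of the neither gate was not tested. In Dntt-high nuclei the 4 sets gave 382, 632, 322 and 636 CPM, and its ratio to the neither gate ran from 0.70 to 1.31 between sets. Sets 2 and 4 were the high ones in both Dntt-high and double-positive nuclei, where the sets gave 435, 720, 440 and 823 CPM.

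**Figure D1:**
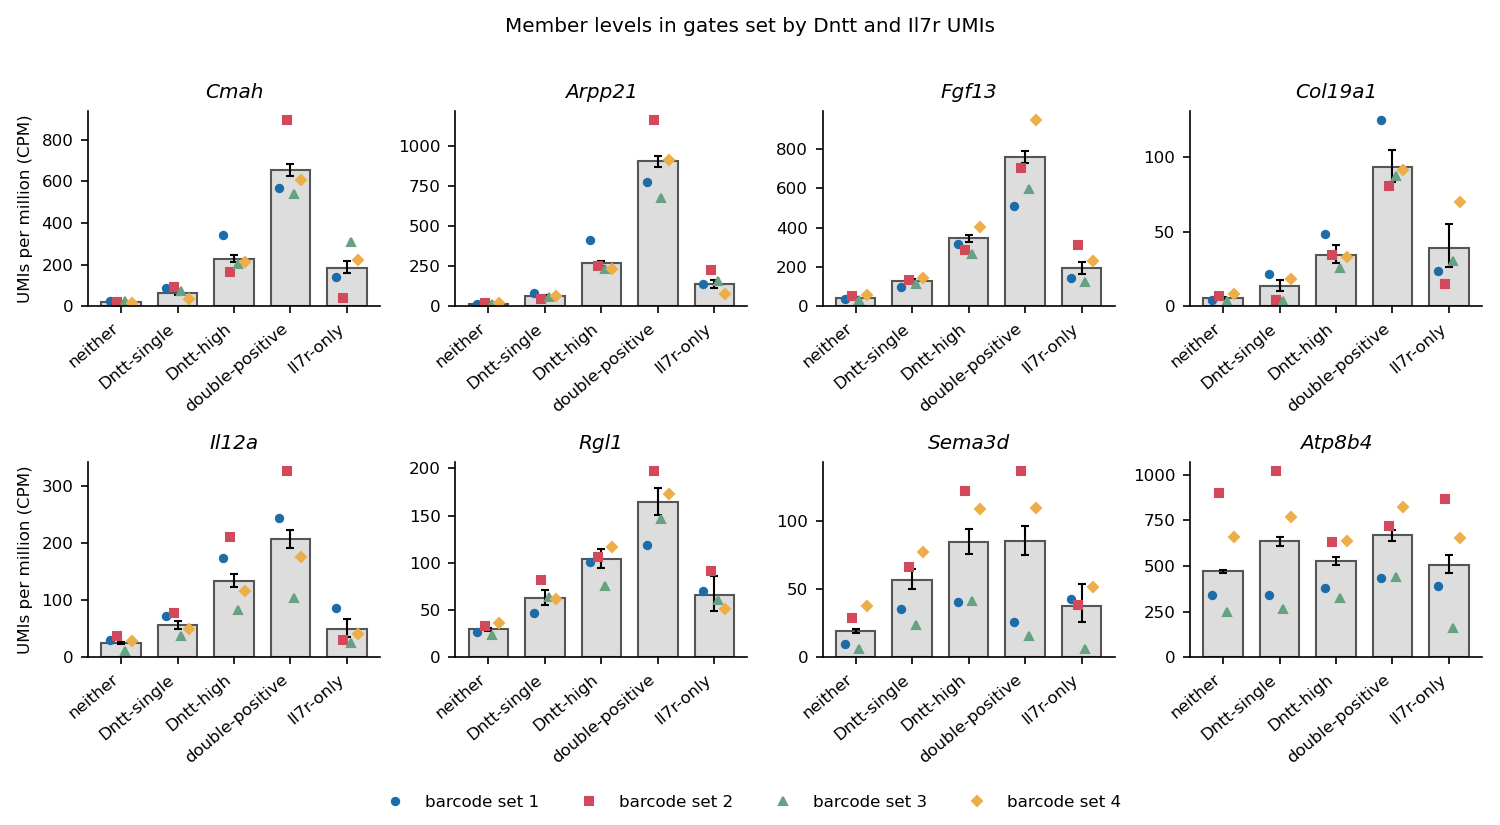
Level of each member (CPM, y axis, linear from 0) in the 5 lymphoid gates (x axis); bars are the pooled level, error bars the exact 95% Poisson interval and points the 4 barcode sets. Cmah, Arpp21 and Fgf13 are highest in double-positive nuclei, at 652, 905 and 759 CPM, while Atp8b4 stays between 471 and 668 CPM.

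A gene was counted as higher or lower when the ratio of 2 gates reached 2-fold on CPM plus 10, with the same direction in all 4 sets, among genes with at least 50 counts over both gates. Of 12684 genes measured in Dntt-high against neither nuclei, 68 were higher, which is 0.536% of them, and 71 lower, or 0.56%. The members were chosen on this contrast: 7 of 8 were higher and Atp8b4 was not called. The ratio was 15.9 for Arpp21 (14.3 to 17.6), 10.6 for Cmah (9.58 to 11.7) and 7.89 for Fgf13 (7.33 to 8.50). Within sets it ran from 9.96 to 29.3 for Arpp21, 7.67 to 16.1 for Cmah and 5.38 to 9.05 for Fgf13. It was 6.36 for Col19a1, 5.55 for Il12a, 4.38 for Sema3d and 3.55 for Rgl1, and at least 2.90 in every set for these 4 genes. Markers of other lineages moved with this contrast: plasma cell markers summed to 456 CPM in neither and 74.2 in Dntt-high nuclei (78.0 to 827 and 31.7 to 146 between sets, 3 of 5 detected in at least 5% of nuclei in both gates, none at 0). Erythroid markers summed to 376 and 42.5 CPM (145 to 484 and 5.15 to 79.3, 4 and 1 of 8 detected, none at 0). Their part in the member levels was not tested. Apart from Dntt itself, no measured gene had a larger ratio on CPM plus 10 than Arpp21, Cmah, Fgf13 and Il12a. The median log2 ratio was 1.88 over the members and 0.05 over all measured genes. Against the stem gate, described with the myeloid nuclei, 64 of 11444 genes were higher (0.559%) and 69 lower (0.603%), and again 7 of 8 members were higher. Cmah was 25.7-fold above stem nuclei (21.3 to 31.2), Col19a1 13.5-fold and Atp8b4 1.97-fold.

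The Il7r-only gate gave intermediate levels. Cmah was at 186 CPM (157 to 218), Arpp21 at 136 (112 to 164) and Fgf13 at 194 (165 to 227). Cmah ranged from 38.0 CPM in set 2 to 310 in set 3. The order of the pooled levels for all 3 genes was neither, Dntt-single, Il7r-only, Dntt-high and double-positive. Il7r-only and Dntt-high nuclei overlapped between sets for Cmah and Fgf13, and Il7r-only and Dntt-single nuclei for all 3 genes. Of the 178 nuclei, 26 also passed the B lineage gate and 13 the T and NK gate. In the 140 others Cmah was at 187 CPM, Arpp21 at 121 and Fgf13 at 193.

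Graded by Dntt alone, with any Il7r, nuclei with 0, 1, 2 to 3 and 4 or more Dntt UMIs numbered 7024, 728, 417 and 539. Arpp21 was at 19.8, 105, 271 and 743 CPM in these grades. Cmah was at 25.6, 80.6, 230 and 560 CPM, and Fgf13 at 47.3, 153, 333 and 675 CPM. Within each of the 4 sets the order of the grades was the same for these 3 genes. A given number of Dntt UMIs is a lower Dntt level in a deep nucleus than in a shallow one, and the part of depth in the grading was not tested. With gates set after thinning each nucleus to 2000 UMIs, the median log2 ratio of the members in Dntt-high against neither nuclei was 2.30, against 1.88 with the gates as used.

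Within the highest Dntt grade, nuclei with Il7r had more of most members. Among nuclei with 4 or more Dntt UMIs, 263 had no Il7r UMI and 276 had at least 1. Cmah was at 309 CPM (284 to 335) without and 778 (741 to 816) with Il7r, and the sets did not overlap (204 to 398 against 617 to 1042 CPM). Arpp21 was at 359 and 1074 CPM, Fgf13 at 452 and 868, and Col19a1 at 44.6 and 108. Il12a was at 165 and 231 CPM and Rgl1 at 121 and 184. Sema3d was the exception, at 105 CPM (91.1 to 121) without and 94.3 (81.8 to 108) with Il7r. Atp8b4 was at 546 and 673 CPM. B lineage nuclei were kept in this split.

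**Figure D2:**
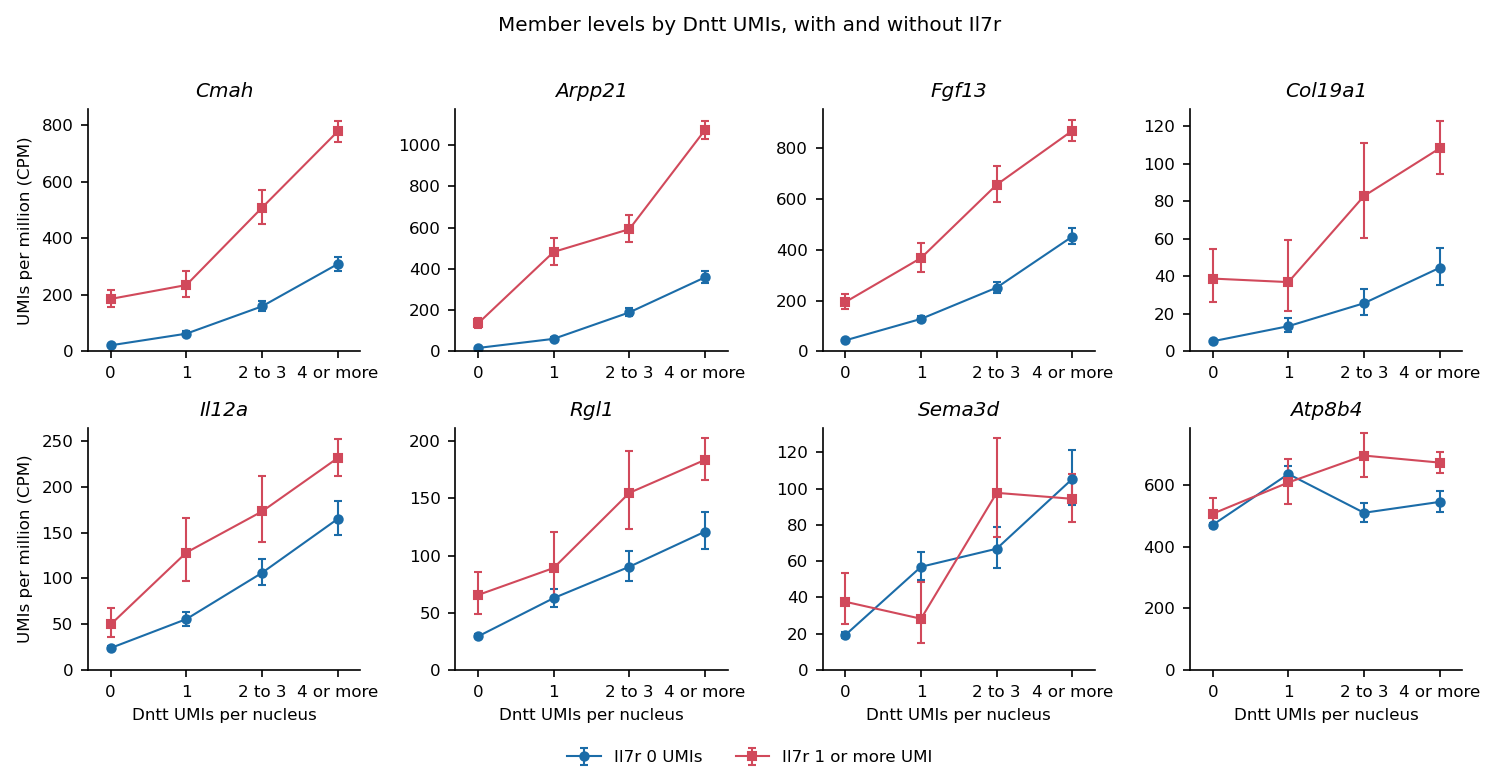
Level of each member (CPM, y axis, linear from 0) against Dntt UMIs per nucleus (x axis), for nuclei without (blue circles) and with (red squares) an Il7r UMI; error bars are exact 95% Poisson intervals. Cmah reaches 309 CPM without and 778 CPM with Il7r at 4 or more Dntt UMIs, whereas the Sema3d lines cross.

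In double-positive against Dntt-high nuclei, 42 of 9402 measured genes were higher (0.447%) and 1 was lower (0.0106%). Of the 8 members, 4 were higher: Arpp21 3.37-fold (3.14 to 3.62), Cmah 2.85-fold (2.63 to 3.08), Col19a1 2.71-fold (2.21 to 3.34) and Fgf13 2.20-fold (2.06 to 2.35). Rgl1 (1.58), Il12a (1.55) and Atp8b4 (1.27) had ratios above 1 in every set without reaching 2-fold. For Sema3d the ratio was 1.01 (0.85 to 1.18), with sets from 0.38 to 1.12. The median log2 ratio was 0.86 over the members and 0.00 over all measured genes. B lineage markers moved with this step: their summed level was 159 CPM in Dntt-high nuclei (60.1 to 184 between sets, 2 of 10 markers detected in at least 5% of nuclei, 1 at 0) and 2371 CPM in double-positive nuclei (1141 to 3077, 9 of 10, none at 0). Without the 68 double-positive nuclei that passed the B lineage gate, Cmah was at 710 CPM, Arpp21 at 944, Col19a1 at 102 and Fgf13 at 722. B lineage markers still summed to 481 CPM in those nuclei (364 to 671 between sets, 2 of 10 detected, 1 at 0), and their part in the member levels was not tested.

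The other known genes of the path were read from a list of 43. In Dntt-high against neither nuclei 4 of 37 measured were higher: Satb1, a chromatin organiser (1085 against 278 CPM), Flt3, a cytokine receptor of early progenitors (833 against 231), Notch1 (188 against 53.0) and the B cell adaptor gene Blnk (54.0 against 16.8). Ighm, the mu heavy chain gene, was lower (170 against 460 CPM), but it was at 171 CPM in stem nuclei. Plasma cell markers summed to 74.2 CPM in Dntt-high and 456 in neither nuclei, and their part in the Ighm difference was not tested. In double-positive against Dntt-high nuclei 9 of 34 were higher: Ebf1, Lef1, Pax5, Blnk, Igll1, Ets1, Vpreb1, Rag2 and Foxo1. Ebf1, the B lineage factor, went from 74.7 to 1781 CPM. Cmah, Arpp21, Fgf13 and Col19a1 were higher at both steps, as was Blnk among these companions.

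Detection per nucleus was compared after thinning each nucleus to 2000 UMIs, which left out 26 of the Dntt-high, 7 of the double-positive and 10 of the erythroid nuclei. Erythroid nuclei, set by Car1 and red cell genes, served as the type read for background. Cmah was detected in 26.8% of Dntt-high nuclei (23.2 to 30.7%), 56.2% of double-positive nuclei (51.3 to 60.9%) and 2.11% of erythroid nuclei (1.02 to 3.85%). Without thinning these shares were 42.9%, 75.5% and 6.63%, at median depths of 5622, 6163.5 and 8757 UMIs. Arpp21 was detected in 36.0%, 67.8% and 1.48% at the thinned depth, and Fgf13 in 37.7%, 61.1% and 0.846%. Rgl1 was detected in 20.4%, 25.2% and 2.75%. Col19a1 was detected in 14.7% of double-positive nuclei, so its absence from a single nucleus says little at this depth.

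**Figure D3:**
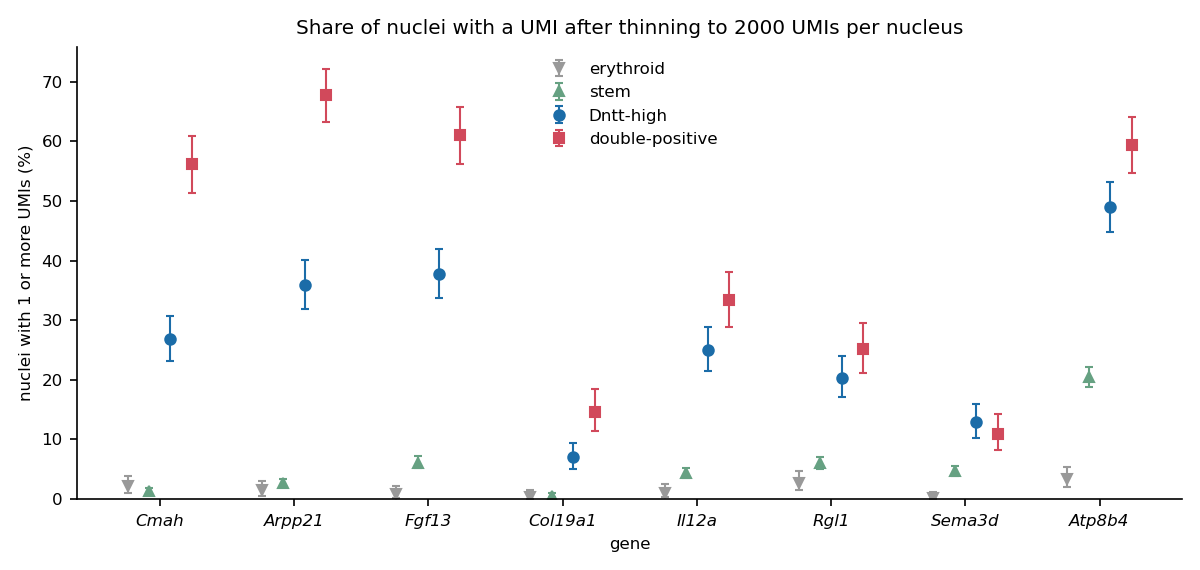
Share of nuclei with at least 1 UMI of each member (%, y axis) after thinning to 2000 UMIs per nucleus, by gene (x axis), in erythroid, stem, Dntt-high and double-positive nuclei; error bars are exact 95% Clopper-Pearson intervals. Cmah goes from 2.11% in erythroid to 56.2% in double-positive nuclei, and the Sema3d shares of the last 2 gates (12.9% and 11.0%) have overlapping intervals.

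The members were partly found in the same nuclei. In Dntt-high nuclei at 2000 UMIs, Arpp21 was detected in 58.7% of nuclei with Cmah and 27.6% of nuclei without it. Fgf13 was detected in 49.3% with Cmah and 33.5% without. Atp8b4 was detected in 46.0% with Cmah and 50.1% without. Among the other members not every pair rose either. Col19a1 was detected in 6.64% of nuclei with Fgf13 and 7.18% without, and Il12a in 20.5% with Col19a1 and 25.4% without. With Atp8b4 left out, at least 3 of the other 7 members were detected in 26.3% of Dntt-high nuclei (147 of 559) and 55.2% of double-positive nuclei (237 of 429). In the stem gate 10 of 2331 nuclei reached 3 members, or 0.429%, and in the erythroid gate 0 of 473.

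Myeloid nuclei were read next. The granulocytic gate took 1633 nuclei with at least 2 UMIs of the myeloperoxidase gene Mpo and a UMI of Elane, Ctsg, Prtn3 or Ms4a3. The stem gate took 2480 nuclei with Hlf, at least 2 Mecom UMIs, no Dntt and no Il7r, and 366 nuclei passed both gates (14.8% of stem and 22.4% of granulocytic nuclei). The stem and granulocytic gates held 7 of 8 markers of their own lists in at least 5% of nuclei. Of 12106 measured genes, 56 were higher (0.463%) and 89 lower (0.735%) in granulocytic against stem nuclei. Of the members 3 were higher and none was lower. Cmah was at 58.1 against 8.91 CPM (6.52-fold, 5.39 to 7.94), with ratios of 2.36, 5.11, 5.41 and 7.32 in sets 1 to 4. Arpp21 was at 66.1 against 15.8 CPM (4.17-fold, 3.60 to 4.85), but its ratios by set were 1.97, 8.59, 2.39 and 2.62. Set 2 was the high one, and the other sets lay below the interval of the pooled ratio. Atp8b4 was at 1173 against 267 CPM (4.39-fold, 4.23 to 4.55), with ratios of 4.64, 2.81, 9.05 and 3.78. Fgf13 was at 91.8 against 41.0 CPM, just under 2-fold on CPM plus 10, with ratios from 1.39 to 3.34. With mitochondrially encoded UMIs left out of the total, sets 2 and 4 stood above sets 1 and 3 in granulocytic nuclei for 7 of 8 members, beside 49.7% of genes measured there. Sema3d was at 18.3 against 33.5 CPM, a ratio of 0.54 (0.46 to 0.64), below 1 in every set and not called.

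The Cmah and Arpp21 levels of granulocytic nuclei came with Dntt. In the 1292 granulocytic nuclei without a Dntt or Il7r UMI, Cmah was at 10.5 CPM (8.59 to 12.8), a ratio to stem nuclei of 1.18 (0.90 to 1.55). Arpp21 was there at 12.7 CPM, a ratio of 0.80 (0.64 to 1.01). Fgf13 was at 44.7 CPM, a ratio of 1.09 (0.96 to 1.24). In the 325 granulocytic nuclei with Dntt, Cmah was at 199 CPM, Arpp21 at 222 and Fgf13 at 228. The flippase gene Atp8b4 behaved otherwise: it was at 1239 CPM (1217 to 1262) without Dntt and Il7r, with sets at 1015, 1418, 923 and 1401 CPM, and at 977 CPM with Dntt. Sema3d was at 12.1 CPM in granulocytic nuclei without Dntt and Il7r, a ratio to stem nuclei of 0.36 (0.29 to 0.44). Granulocytic nuclei with Dntt were deeper than those without Dntt and Il7r, with medians of 8883 and 6522.5 UMIs. Among the highest simulated-doublet scores were 13.8% and 5.03% of them. The part of depth and doublets in this split was not tested.

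With the 366 shared nuclei left out of both gates, a comparison added after the values were seen, Cmah was at 74.9 against 7.70 CPM and Arpp21 at 84.9 against 16.1. Atp8b4 was at 1350 against 128 CPM and Sema3d at 16 against 36.5. The count of members called was then 5, all higher: these 3, Fgf13 and Col19a1. Of 11562 genes measured, 124 were then higher (1.07%) and 233 lower (2.02%). Monocytic nuclei, set by Csf1r and Ly86 with few MHC class II UMIs, numbered 141, of which 96 were also granulocytic. Cmah was at 99.2 CPM there and at 19.5 in the 97 nuclei without Dntt or Il7r. Atp8b4 was at 1522 CPM, its highest level over the gates read, and at 1673 without Dntt or Il7r. That order rests on the shared nuclei. With each nucleus placed in 1 class only, granulocytic before monocytic, Atp8b4 was at 921 CPM in 44 monocytic and 1181 in 1605 granulocytic nuclei.

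Dntt and Mpo, genes of the lymphoid and the myeloid path, were then crossed. Among nuclei with at least 2 Dntt UMIs, 320 had at least 2 Mpo UMIs and 401 had none. Cmah was at 348 CPM with and 511 without Mpo, a ratio of 0.68 (0.63 to 0.74; 0.58 to 0.62 within sets). Arpp21 was at 409 and 756 CPM, a ratio of 0.54 (0.38 to 0.46 within sets). Both pooled ratios lay above those of all 4 sets. Set 2 held 86 of the 320 nuclei with Mpo and 23 of the 401 without. The part of this uneven mix of sets was not tested. Sema3d was at 53.1 and 117 CPM with and without Mpo, and Atp8b4 at 725 and 488. In nuclei with neither Dntt nor Mpo, Atp8b4 was at 116 CPM. Mpo-positive nuclei without Dntt held 12.7 CPM of Cmah and 15.2 of Arpp21, so within Mpo-positive nuclei Dntt came with a 27.4-fold higher Cmah level (23.3 to 32.4) and a 26.9-fold higher Arpp21 level (23.2 to 31.4). Median depth was 8351.5 UMIs with both genes and 4570 with Dntt alone, and 12.8% and 6.98% of these nuclei were among the highest simulated-doublet scores. B lineage genes also differed: Ebf1 was at 378 CPM with and 1554 without Mpo, Pax5 at 20.1 and 126, and Igll1 at 2.31 and 21.7. Cd79b was not lower with Mpo, at 7.26 and 6.01 CPM. The part of B lineage genes in the lower member levels with Mpo was not tested. The part of depth and doublets in the nuclei with both genes was not tested.

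Nuclei with Dntt were also split by stem genes. Nuclei with a Dntt UMI numbered 567 with Hlf and at least 2 Mecom UMIs and 492 with neither gene. Cmah was at 111 CPM with and 532 without stem genes, Arpp21 at 198 and 609, and Fgf13 at 245 and 565. Of the nuclei with stem genes 267 had at least 2 Dntt UMIs, and of those without 313, and their median depths over all Dntt grades were 7703 and 4218.5 UMIs. Sema3d was at 76.2 CPM with and 57.2 without stem genes, with ratios by set from 0.62 to 2.02. Even with stem genes, Cmah was 10.9-fold higher with Dntt than without (9.09 to 13.2), at 111 against 10.1 CPM, with ratios by set from 3.68 to 22.4. In the same nuclei Atp8b4 was at 431 against 266 CPM, with ratios by set from 1.20 to 2.34. Of the nuclei with Dntt and stem genes 17.8% were among the highest doublet scores, against 2.85% of those with Dntt and no stem genes. Cycling nuclei, with a UMI of Top2a or Mki67, held less Cmah among nuclei with Dntt (260 against 454 CPM, a ratio of 0.52 to 0.69 within sets). Arpp21 was at 364 against 429 CPM and Sema3d at 64.5 against 134. Cycling nuclei were deeper, with a median of 6380 against 3617 UMIs, so 1 Dntt UMI marks a lower Dntt level in them. Of the cycling nuclei 10.8% were among the highest doublet scores, against 3.61% of the others. The part of depth and doublets in these differences, and in those by stem genes, was not tested.

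**Figure D4:**
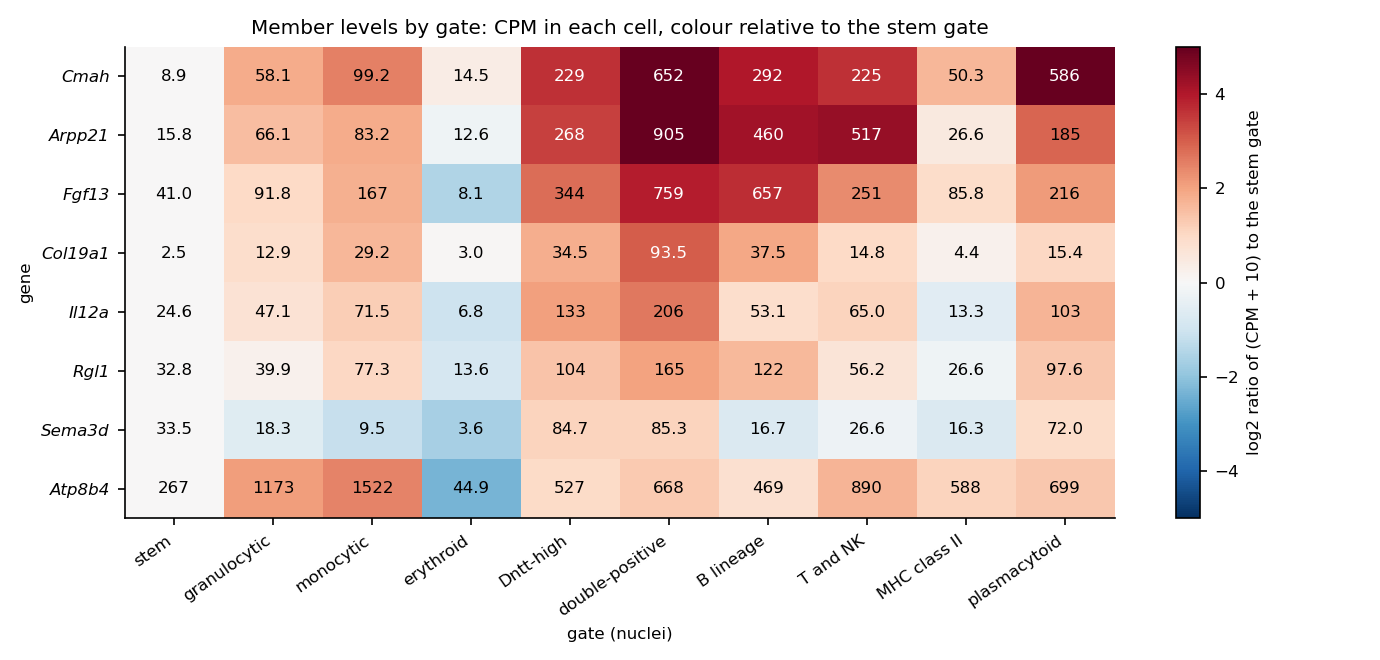
Level of each member (rows) in 10 gates (columns); numbers are CPM and colour is the log2 ratio of CPM plus 10 to the stem gate, from blue (lower) to red (higher). Gates can share nuclei, and Cmah is highest in double-positive (652 CPM) and plasmacytoid (586 CPM) nuclei, whereas Atp8b4 is highest in monocytic (1522 CPM) and granulocytic (1173 CPM) nuclei.

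B lineage nuclei, with at least 1 UMI each of Ebf1 and Pax5, numbered 175, of which 68 were also double-positive. The 4 sets held 61, 7, 62 and 45 of them, and all 7 of set 2 were among the highest doublet scores. In the gate 10 of 10 B lineage markers were detected in at least 5% of nuclei. It was compared with the 368 double-positive nuclei outside that gate. All of those held Dntt and Il7r by their rule, whereas 88 of the 175 B lineage nuclei held Dntt and 94 held Il7r. The members were chosen for their levels beside Dntt, and the part of this difference between the gates was not tested. Of 7567 measured genes, 75 were higher (0.991%) and 124 lower (1.64%). Of the members 5 were lower and none was higher. Cmah was at 292 against 710 CPM (ratio 0.41, 0.36 to 0.47), Arpp21 at 460 against 944 (0.49, 0.44 to 0.54), Il12a at 53.1 against 234 (0.23, 0.17 to 0.30), Sema3d at 16.7 against 97.1 (0.17, 0.10 to 0.28) and Col19a1 at 37.5 against 102 (0.37, 0.25 to 0.52). Fgf13 was at 657 against 722 CPM, not called, with sets at ratios of 0.24, 0.75, 0.77 and 1.35. Rgl1 was at 122 against 164 CPM and Atp8b4 at 469 against 672. The median log2 ratio was −1.13 over the members and −0.08 over all measured genes. Without set 1, or without set 3, fewer members were lower.

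The B lineage gate was also split by Dntt, and the split was uneven between members and sets. In 88 nuclei with and 87 without a Dntt UMI, Arpp21 was at 648 and 122 CPM (5.29-fold, 3.84 to 7.46; 2.52 to 7.06 within sets). Fgf13 was at 918 and 187 CPM, but its ratio ran from 0.55 to 6.0 between sets. Cmah was at 358 and 175 CPM (2.05-fold, 1.53 to 2.77; 1.10 to 2.31 within sets). Il12a was at 61.5 and 37.9 CPM, a ratio of 1.62 whose interval of 0.85 to 3.32 includes 1, with a set at 0.70. Col19a1 was at 50.2 and 14.6 CPM, and in the 1 set where a ratio could be formed it was 0.90. Rgl1 was at 159 and 55.4 CPM, Atp8b4 at 643 and 157, and Sema3d at 25.9 and 0 CPM, where a count of 0 allows up to 8.74 CPM by 3 counts. The 2 kinds of nuclei differed in depth (medians of 6018 and 2613 UMIs) and in other genes. Igll1, a surrogate light chain gene of B cell precursors, was at 120 CPM with and 37.9 without Dntt, Cd79a at 77.7 and 146, and the plasma cell gene Jchain at 14.6 and 108. Their part in the member levels was not tested.

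**Figure D5:**
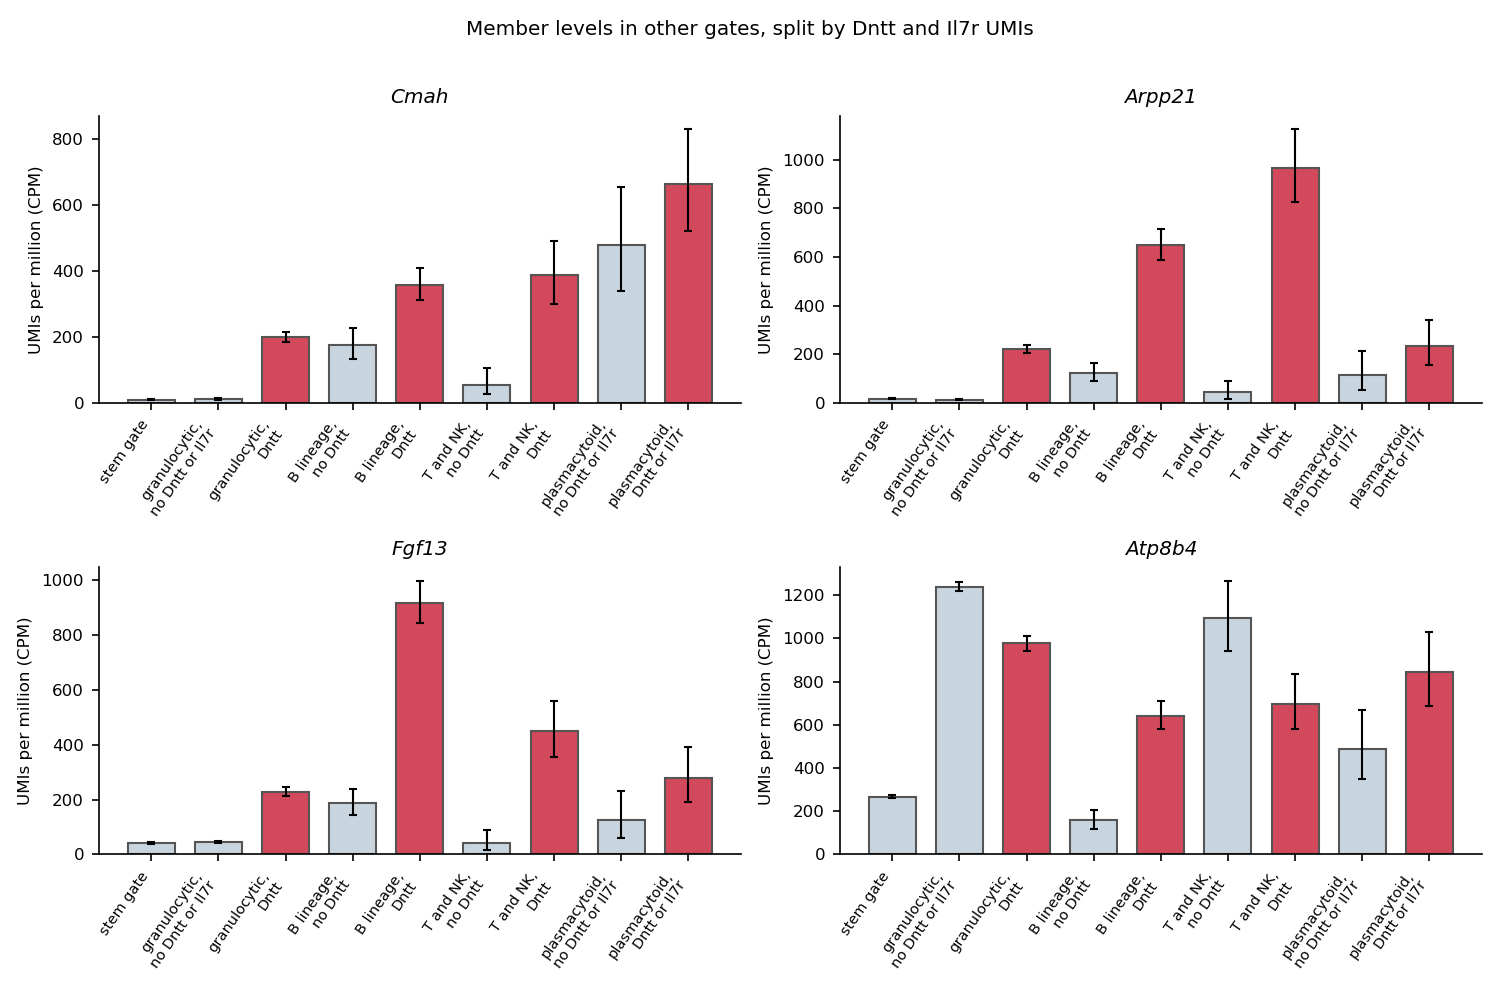
Level (CPM, y axis, linear from 0) of Cmah, Arpp21, Fgf13 and Atp8b4 in the stem gate and in other gates split by Dntt or Il7r UMIs (grey without, red with); error bars are exact 95% Poisson intervals. Without Dntt or Il7r, Cmah is at 10.5 CPM in granulocytic and 477 CPM in plasmacytoid nuclei.

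Dendritic genes set 2 gates. The MHC class II gate took 132 nuclei with at least 5 UMIs of H2-Aa, H2-Ab1, H2-Eb1 and Cd74, and 9 of 9 markers were detected in at least 5% of them. Against stem nuclei 515 of 11091 genes were higher (4.64%) and 422 lower (3.8%). Of the 7 members measured there, Atp8b4 was higher, at 588 against 267 CPM (2.20-fold, 1.98 to 2.44). Its ratios by set were 2.71, 1.84, 4.93 and 1.71, and without set 3 no member was called. Cmah was at 50.3 CPM, from 34 UMIs, with sets at 0, 196, 40.8 and 32.6 CPM, and at 28.8 in the 118 nuclei without Dntt or Il7r. Arpp21 was at 26.6 CPM (15.8 to 42.1) against 15.8 in stem nuclei. Markers of plasma cells moved with this gate: they summed to 2696 CPM, from 147 to 22800 between sets, against 100 CPM in stem nuclei. Their part in these levels was not tested.

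The second gate used genes of plasmacytoid dendritic cells, which make interferon in mature form. It took 36 nuclei with at least 2 of Siglech, Cox6a2, Klk1, Ccr9, Pacsin1 and Cd300c, and the sets held 10, 4, 18 and 4 of them. Of 8 plasmacytoid markers, 6 of which also set the gate, 6 were detected in at least 5% of nuclei and 1 was at 0. They summed to 2544 CPM (878 to 3686 between sets). MHC class II dendritic markers summed to 2570 CPM (827 to 5909), with 9 of 9 detected and none at 0, against 384 CPM in stem nuclei. The gate is therefore named by its rule, and 8 of its nuclei also passed the MHC class II gate. Both dendritic gates shared the stem nuclei as their comparison with the granulocytic gate. Of 10968 genes, 187 were higher (1.7%) and 773 lower (7.05%) against stem nuclei. Of the 7 members measured, 4 were higher. Cmah was at 586 CPM (483 to 704) against 8.91, or 65.7-fold (50.6 to 85.4), with sets at 737, 203, 605 and 651 CPM. Arpp21 was at 185 CPM (11.7-fold), Il12a at 103 (4.17-fold) and Atp8b4 at 699 (2.61-fold). Fgf13 was at 216 CPM but at 0 in set 2. Without the 8 shared nuclei, a comparison added after the values were seen, Cmah was at 688 CPM (558 to 839), with sets at 737, 0, 585 and 963 CPM. Set 2 then held 1 nucleus, and Cmah and Il12a were no longer called. After thinning, Cmah was detected in 14 of 28 nuclei.

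Unlike in granulocytic nuclei, Cmah in plasmacytoid nuclei was also high without Dntt and Il7r. The 18 nuclei without either gene held Cmah at 477 CPM (337 to 654, 38 UMIs), and the 18 with at least 1 of them at 662 CPM (521 to 828). Arpp21 was at 113 and 235 CPM. Median depths were 3075 and 4513 UMIs, against 6522.5 in granulocytic nuclei without either gene, so missing Dntt and Il7r says less here. Among the highest doublet scores were 0% and 22.2% of these plasmacytoid nuclei. The part of depth and doublets was not tested. A single nucleus held 1289 of the 1310 Ighm UMIs and 307 of the 313 Jchain UMIs of the 18 without either gene. Without it, a comparison added after the values were seen, Cmah was at 604 CPM in 35 nuclei and at 500 (342 to 706) in the 17 without Dntt and Il7r. That nucleus supplied the Cmah UMIs of set 2, so without it Cmah no longer met the rule of all 4 sets. Whether Cmah without Dntt differs between these gates and granulocytic nuclei was not tested beyond these intervals.

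The genes nearest in pattern were ranked by Pearson correlation of log2(CPM plus 10) over 14 disjoint classes of nuclei, among 10393 genes. The classes share libraries and differ in depth, so the values describe the table. For Cmah they were Emp1 (0.932), Rasal1, Arpp21, Tspan2 and Ephb2 (0.915). For Arpp21 they were Mgat4a (0.933), Rasal1, Fgf13, Abtb2 and Cmah (0.921). For Fgf13 they were Med13l (0.956), Foxp1, Cd69 and Mgat4a (0.939). Between members, the correlation was 0.921 for Cmah and Arpp21 and 0.886 for Cmah and Fgf13. Sema3d correlated at 0.330 to 0.772 with the others, and Atp8b4 at 0.330 to 0.747.

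Relatives of the members by function or sequence were read in the same comparisons. Of 25 measured genes of sialic acid synthesis, transfer and recognition, 1 was higher in Dntt-high than in neither nuclei: St8sia1, an alpha-2,8-sialyltransferase gene, at 20.2 against 2.93 CPM. Cd33, a sialic acid receptor gene, was at 17.5 against 4.18 CPM and not called. In double-positive against Dntt-high nuclei 3 of 22 were higher, beside 0.447% of all genes: St6gal1, which adds sialic acid in alpha-2,6 linkage (71.6 against 16.7 CPM), St3gal6 (49.1 against 16) and the receptor gene Siglech (14.9 against 1.75). In B lineage nuclei against double-positive nuclei outside that gate 4 of 19 were higher and 2 lower, beside 0.991% and 1.64% of all genes. The receptor gene Siglecg (65.6 against 11.4 CPM), St6gal1 (161 against 44.4), St3gal6 (110 against 32.2) and the sialidase gene Neu1 (34.3 against 12.1) were higher, and St8sia1 (3.12 against 36.4) and Cd33 (9.37 against 28.8) lower. In granulocytic against stem nuclei none of 24 was called. The numbers of relatives of the other members measured were 8 for Arpp21, 4 for Fgf13, 2 for Col19a1, 11 for Il12a, 13 for Atp8b4, 14 for Sema3d and 16 for Rgl1. None of these was called in Dntt-high against neither nuclei, or in the 2 steps to double-positive and B lineage nuclei where measured. R3hdm2, a relative of Arpp21, was at 188 against 155 CPM in Dntt-high and neither nuclei, Stat4, which signals from the interleukin-12 receptor, at 209 against 131, and Atp10a, another flippase gene, at 266 against 185. Plxnc1, a semaphorin receptor gene, was at 144 against 233 CPM and Ralgps1, a Ral exchange factor gene, at 60.7 against 35.4. In granulocytic against stem nuclei, the semaphorin receptor gene Nrp1 was higher (26.2 against 5.73 CPM) and Plxnc1 lower (123 against 257).

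The nearest genes along the chromosomes were read beside the members. Ripor2, 24.2 kb from Cmah, was at 1215 CPM in Dntt-high and 867 in neither nuclei. Arpc5, 0.234 kb from Rgl1, was at 48.2 and 46.8 CPM, and Lmbrd1, next to Col19a1, at 88.0 and 75.8. No neighbour that was measured reached 2-fold.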

How the data were processed

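The members, the gates and the gene lists were chosen with earlier results of these data known. The deposited table holds raw UMI counts per gene and nucleus, with no normalization by the authors, checked to be whole numbers. Per the submitters' processing notes, mm10 was the build, and Cell Ranger ARC, Signac and Seurat were used. Versions, annotation and filters on nuclei are not given in the sources used here. All deposited nuclei were kept, and doublets were not removed: a simulated-doublet score marked the highest 5% per barcode set for an alternative.

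Counts were summed per gate and divided by the gate's UMIs (CPM), with Python 3.11.15, numpy 2.4.6, scipy 1.17.1, pandas 2.3.3 and scikit-learn 1.9.0. Intervals are exact Poisson for CPM, Clopper-Pearson for shares and exact binomial for ratios. The limit for a count of 0 is 3 counts. The calling rule, the thinning and the intervals were tested on simulated data. Genes named besides the members are those that set the gates, the 5 nearest in pattern to Cmah, Arpp21 and Fgf13 (1 is not reported here), the 2 with the largest ratio in each related list (not all printed), chromosomal neighbours, and called list members, the last chosen after their values were seen. A sum over 4 sets of unknown genotype has no error between mice.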

Additional observations from a re-analysis of the deposited data

How the results depend on the processing

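No paired analysis was possible because the barcode sets carry no replicate number. Of the values called for members, 70 of 70 in Dntt-high against neither nuclei stayed called over 10 alternatives and 32 of 32 in double-positive against Dntt-high nuclei over 8. It was 22 of 24 in granulocytic (8 alternatives), 28 of 35 in B lineage, 6 of 7 in MHC class II (7 each) and 27 of 32 in plasmacytoid nuclei (8). One direction turned: Arpp21 in granulocytic against stem nuclei had a log2 ratio of −0.18 without nuclei holding Dntt or Il7r. Cmah and Arpp21 were no longer called there, and the member median was 0.10. Leaving out nuclei of both gates, chosen after seeing the data, gave 5 members and 357 genes. Leaving MHC class II gate nuclei out of the plasmacytoid comparison, also chosen after seeing the data, left Cmah and Il12a uncalled.

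The Dntt-high member median was 1.54 from 1 Dntt UMI (55 genes called), 2.07 from 3 and 2.30 with gates set after thinning (229 genes). With CPM plus 1 the gene counts were 550 for Dntt-high, 110 for double-positive, 575 for granulocytic (5 members), 351 for B lineage, 1966 for MHC class II and 2174 for plasmacytoid nuclei. At 1.5-fold they were 565, 199, 587 (7 members), 645, 2179 (2 members) and 2155. From 200 counts they were 28 for double-positive and 94 for B lineage nuclei. Without the highest doublet scores, MHC class II nuclei had more members called, and plasmacytoid nuclei had 1442 genes called. The median member share in Dntt-high nuclei, 25.9%, was 18.5% at 1000 UMIs and 46.9% unthinned.

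Leaving out each set in turn gave member medians of 1.77 to 2.05 (Dntt-high), 0.82 to 0.92 (double-positive), 0.77 to 1.02 (granulocytic), −1.62 to −0.87 (B lineage), 0.28 to 0.34 (MHC class II) and 1.40 to 1.73 (plasmacytoid). Members called were 7, 4, 3 to 4, 3 to 6, 0 to 3 and 3 to 7 in the same order. Genes called were 128 to 176, 40 to 46, 124 to 188, 193 to 277, 898 to 1526 and 1170 to 1523. The B lineage count was 3 without set 1 and without set 3. The MHC class II count was 2 without set 1, 0 without set 3 and 3 without set 4, when 1526 genes were called, and plasmacytoid nuclei had 7 members without set 2 and 1523 genes without set 3. The causes were not tested. Col19a1 and both dendritic gates rest on few counts.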

Other observations

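T and NK nuclei, with at least 2 of 8 T and NK genes, numbered 49 and were not compared as a gate. They share nuclei with the gates above: 16 were double-positive, 2 Dntt-single, 13 Il7r-only and 18 in the neither gate. In the 18 with a Dntt UMI, Arpp21 was at 968 CPM (827 to 1126) and in the 31 without at 42.5 (17.1 to 87.6). Cmah was at 386 and 54.7 CPM, Fgf13 at 449 and 42.5, and Atp8b4 at 697 and 1094. The B lineage gene Ebf1 was at 1135 and 36.5 CPM, with 173 of the 197 UMIs in 1 nucleus, and Flt3 was at 392 and 207 and Ighm at 213 and 85.1. Median depths were 7232.5 and 4370 UMIs. The part of these in the member levels was not tested. Sets of 4 to 9 nuclei lie behind these values.

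Members differed between barcode sets within a gate. With mitochondrially encoded UMIs left out of the total, sets 2 and 4 stood above sets 1 and 3 for 4 of 7 measured members in stem nuclei, beside 42.6% of genes, and for 2 of 8 in Dntt-high nuclei, beside 33.6%. In granulocytic nuclei Cmah was at 28.7, 127, 36.7 and 57.3 CPM in sets 1 to 4 and Arpp21 at 28.7, 152, 32.4 and 64.6. Sema3d in stem nuclei was at 21.2, 52.0, 9.41 and 59.7 CPM in the same order. In granulocytic nuclei it was at 7.49, 32.0, 5.60 and 25.3 CPM, and in Dntt-high nuclei at 51.5, 135, 52.5 and 119. For Sema3d, sets 2 and 4 stood above sets 1 and 3 by at least 2-fold in the last 2 gates, as did 0.294% of 10547 genes measured in granulocytic and 0.304% of 7883 in Dntt-high nuclei. Atp8b4 in stem nuclei was at 260, 510, 120 and 379 CPM, in the same order without reaching 2-fold. Sets 2 and 4 were also the deeper ones with the lower mitochondrial share. Whether the order follows genotype, replicate or preparation cannot be told apart.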
